A study of Sus scrofa domesticus with 150 samples.

Results

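Center tissue of excisional wounds on day 1 after wounding was compared with the unwounded skin excised on day 0. The comparison holds 12 of the 150 samples of the experiment: the 6 samples that the labels place in the wound center on day 1 and the 6 samples of whole excised skin. Full-thickness circular wounds, 2 cm across, were made in female Yorkshire-mix pigs, and RNA with a poly-A tail was sequenced from wound centers and wound edges on 14 days of healing. The skin group has 1 sample from each of the animals 1323, 1324, 1325, 1326, 1327 and 1328, taken as the wounds were made. The center group has biopsies of the wounds A and L of the animals 1323, 1324 and 1325, so 3 animals are in both groups. Each wound was covered with Telfa Clear and Tegaderm and had no further treatment, and a topical antibiotic was put on biopsy sites. The skin was a whole excised piece and the center sample a small punch of the wound, so wounding and the tissue taken cannot be told apart in this comparison. Edge samples of the same 6 wounds on day 1 (6 samples) serve below to show where the center differed from the rim of the wound. The p-values treat the wounds A and L of an animal as separate samples.

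A full-thickness excision takes away the epidermis, the hair follicles and the dermis, and the center of the wound is at first without an epithelium, which grows back from the rim. In the early inflammatory phase, injured and resident cells release chemokines, neutrophils leave the blood before monocytes do, and endothelial cells display selectins and adhesion molecules on which leukocytes roll and stop. Fibroblasts, new vessels and new collagen fill the wound in the phase that follows.

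Libraries held 15698806 to 21415735 counts in skin 14982360 to 19093847 in the center and 13685366 to 18503290 at the edge. The 10 most abundant genes took 12.3% to 17.3% of the counts in skin and 4.90% to 6.11% in the center. Levels are given as CPM, the counts of a gene relative to the library total after scaling by TMM factors. A gene passed the test at a Benjamini-Hochberg adjusted p below 0.05 in the quasi-likelihood test of edgeR over the 14789 genes that passed the filter on low counts, of 30461 in the table. On this test 4879 genes (33.0%) were higher in the center and 4744 (32.1%) lower. By at least 2-fold, 2446 genes (16.5%) were higher and 2846 (19.2%) lower. The 6 center and 6 skin samples did not overlap for 6394 genes (43.2%). The median log2 fold change of all genes tested was 0.00, and without TMM it was 0.17, with 60.4% of the calls higher in place of 50.7%. These shares are the background against which the counts of each gene list below are to be read. Of the 129 genes named with full values, 41 take their symbol from a protein match of the deposited table, the keratins KRT1, KRT5 and KRT10 among them. Genes lie on contigs of the deposited annotation, for example CXCL8 (ENSSSCG00025017428) at bases 3456350 to 3459574 of contig LUXX01018793.1.

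Epidermal genes were lower in the day 1 center than in skin. Of the 26 markers of suprabasal keratinocytes, the differentiating layers of the epidermis, 24 were lower and 1 higher (median log2 fold change -4.21), and of the 19 markers of basal keratinocytes 18 were lower and 1 higher (-3.20). Without both wounds of animal 1325 the medians of the lists were -7.73 and -5.14. KRT10, a keratin of the differentiated layers, was at 10057 to 27609 CPM (median 18799) in skin and at 42.6 to 5933 CPM (median 88.1) in the center. Wound A of animal 1325 was the highest center sample, and the next was at 135 CPM. The log2 fold change of KRT10 was -4.28 ± 1.32 SE, edgeR adjusted p = 0.0127, and without both wounds of animal 1325 it was -7.90. TP63, the transcription factor of basal cells, was between 218 and 268 CPM (median 251) in skin and between 0.518 and 69.0 CPM (median 0.949) in the center, with no overlap and a log2 fold change of -4.41 ± 1.24 SE, edgeR adjusted p = 0.00744. The center samples of TP63 other than wound A of animal 1325 were at most 1.78 CPM, and without both wounds of this animal its log2 fold change was -7.93. KRT5, a basal keratin, was at 6749 to 10624 CPM (median 8425) in skin and 24.2 to 3412 CPM (median 67.7) in the center (log2 fold change -3.86 ± 1.21 SE, edgeR adjusted p = 0.0140). KRT5 was at most 137 CPM in the center samples other than wound A of animal 1325, and without both wounds of animal 1325 its log2 fold change was -6.90 (edgeR adjusted p = 7.19e-07). With skin of the 3 shared animals alone, KRT1, KRT5 and DSG1 kept their direction and missed the threshold, KRT5 at -3.95 with an edgeR adjusted p of 0.0521, and 15 suprabasal markers passed as lower in place of 24.

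The summed level of the suprabasal markers was 32547 to 78398 CPM in skin. In the center it was 18467 CPM in wound A of animal 1325 and 875 to 2844 CPM in the other samples. The same sample was the highest of the center for COL7A1, FGFR3 and WNT3 below, whose log2 fold changes without both wounds of animal 1325 were -6.82, -6.76 and -6.74. BCAM, an adhesion protein that binds laminin and is also carried by vessels and red cells, was at 121 to 316 CPM (median 163) in skin and 490.2 to 2789 CPM (median 1247) in the center (log2 fold change 2.76 ± 0.43 SE, edgeR adjusted p = 0.000120). TGM3, a transglutaminase, was between 297 and 582 CPM (median 449) in skin and between 332 and 2493 CPM (median 1104) in the center, and the groups overlapped. Its log2 fold change was 1.41 ± 0.44 SE, edgeR adjusted p = 0.0128, and it missed the threshold with animal as a block (1.03, edgeR adjusted p = 0.0952). Of 7 genes of keratinocyte activation, 2 passed the test, both lower, and 6 without wound A of animal 1325. KRT6C, a keratin of activated epidermis whose close copies may share reads with it, was at 478 to 1123 CPM (median 929) in skin and 16.0 to 1807 CPM (median 48.2) in the center, overlapping, with a log2 fold change of -1.40 ± 1.05 SE, edgeR adjusted p = 0.258, and passed as lower at -4.23 without wound A of animal 1325 (edgeR adjusted p = 9.86e-06).

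All 21 hair follicle markers tested were lower in the center. The filter also kept genes that were high in skin alone, and 13 of the list passed it between center and edge, without skin. For a gene kept through skin alone, lower was the only outcome open, so the count carries no weight for such genes. The 10 genes with the lowest log2 fold changes by the rule for named genes were KRT82, KRT31, KRT35, KRT33B, KRT73, KRT74, KRTAP3-3 and KRTAP11-1 of the hair shaft and its sheath, PRR9, and PIP, a secretory protein of glands. KRT31, a hard keratin of the hair shaft, was at 2.80 to 1860.1 CPM (median 927) in skin and at 0 to 0.388 CPM (median 0.05) in the center. KRTAP11-1, a protein that links hair keratins, was between 1.94 and 1815 CPM (median 1090.02) in skin and between 0 and 0.944 CPM (median 0.05) in the center. For both genes the lowest skin sample was animal 1324, which still lay above the highest center sample. The counts of KRT82, KRT35, KRT73 and PIP were at most 3 in every center library, so the fold of the skin median over the level of 3 counts can be given as a bound: at least 1786-fold lower for KRT82, 1026-fold for KRT35, 222-fold for KRT73 and 681-fold for PIP. The skin ranges behind these medians were wide: KRT82 was at 0.97 to 660.4 CPM (median 347), KRT35 at 1.43 to 340.4 CPM (median 199) and KRT73 at 1.199 to 59.9 CPM (median 43.2), each lowest in animal 1324, and PIP was at 24.9 to 383 CPM (median 132). LHX2, a transcription factor of hair follicle stem cells, was between 28.0 and 65.6 CPM (median 41.4) in skin and between 0 and 1.44 CPM (median 0.05) in the center (log2 fold change -7.37 ± 0.80 SE, edgeR adjusted p = 8.05e-06). Wound A of animal 1325 was again the highest for LHX2, the other center samples were at most 0.0556 CPM, and without both wounds of animal 1325 the log2 fold change was -10.29. The summed level of the hair markers was 402 to 23953 CPM in skin, lowest in animal 1324, and 6.04 to 49.5 CPM in the center. The median log2 fold change of the list was -9.85, or -9.63 with 4 genes set at their bound. When animal was a random effect in limma-voom, 12 of the 21 passed the test. Of the genes named as lowest, KRT82, KRT31, KRT35, KRT33B, KRT74, KRTAP3-3, KRTAP11-1 and PRR9 missed the threshold in that fit. Their limma-voom adjusted p ran from 0.100 for KRT31 to 0.176 for KRT74. With animal as a block in edgeR all 21 passed as lower. The correlation within an animal that limma-voom estimated was -0.009, and the change of tool and the animal term were not tested apart. Near-identical keratin and keratin-associated genes may share reads, so levels of single members are uncertain. KRT35 also has more than 1 row in the deposited counts, of which 1 was used.

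Genes of fat cells were higher in the center. Of 17 adipocyte markers 16 were higher and 0 lower (median log2 fold change 3.68). ADIPOQ, the hormone adiponectin, was at 51.5 to 931 CPM (median 282) in skin and at 2028 to 9545 CPM (median 4499.97) in the center. Each center sample was above each skin sample, and the log2 fold change was 3.63 ± 0.69 SE, edgeR adjusted p = 0.000563. LPL, the lipase that frees fatty acids from lipoproteins, was between 51.0 and 249 CPM (median 143) in skin and between 1226 and 3048 CPM (median 1969) in the center (log2 fold change 3.68 ± 0.39 SE, edgeR adjusted p = 7.19e-06). PLIN1, which coats the fat droplet, rose by 3.29 ± 0.68 on the log2 scale and LEP, the hormone leptin, by 4.71 ± 0.71 (SE, edgeR adjusted p = 0.00106 and 0.000103), and LEP by 5.31 without skin of animal 1323. The summed adipocyte level was 1235 to 3412 CPM in skin and 8145 to 27040.1 CPM in the center, highest in wound A of animal 1323. In bulk samples, more cells of a type and more RNA per cell cannot be told apart, and this holds for each marker list here.

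Of 26 markers of blood vessel endothelium, 23 were higher, 22 of them by at least 2-fold, and 0 were lower (median log2 fold change 1.76). PECAM1, a junction protein of endothelial cells, was between 127 and 221 CPM (median 169) in skin and between 492 and 885 CPM (median 667) in the center (log2 fold change 1.96 ± 0.17 SE, edgeR adjusted p = 1.61e-06). KDR, the receptor for vascular endothelial growth factor, was at 22.9 to 41.9 CPM (median 34.9) in skin and 113 to 179 CPM (median 137) in the center (log2 fold change 1.99 ± 0.17 SE, edgeR adjusted p = 1.66e-06). The groups did not overlap for either gene. SELP, the selectin of activated endothelium and platelets, was at 0.4 to 2.61 CPM (median 1.10) in skin and 15.9 to 129.96 CPM (median 30.7) in the center, a log2 fold change of 5.05 ± 0.65 SE, edgeR adjusted p = 2.83e-05. SELE, the selectin that endothelium makes under cytokine stimulation, rose by 4.72 ± 0.77 (SE, edgeR adjusted p = 0.000189). SELE has more than 1 row in the deposited counts, of which 1 was used. Without wound L of animal 1323 the log2 fold changes of SELP and SELE were 4.34 and 4.00. Of 10 lymphatic vessel markers 3 were higher and 2 lower.

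Muscle RNA set wound L of animal 1325 apart. The summed level of 22 skeletal muscle genes was 22.7 to 40.4 CPM in skin, 15156 CPM in that sample and 22.9 to 64.4 CPM in the other center samples. ACTA1, the actin of skeletal muscle, was between 0 and 0.728 CPM (median 0.594) in skin and between 0 and 5299 CPM (median 0.173) in the center. The log2 fold change of ACTA1 was 10.73 ± 3.13 SE, edgeR adjusted p = 0.00934, and without this sample it was 1.75 with an edgeR adjusted p of 0.244. CKM, the creatine kinase of muscle, was at 3.20 to 13.4 CPM (median 5.63) in skin and 0.648 to 2179 CPM (median 1.14) in the center. It was higher by 5.70 ± 2.10 with all samples and lower without wound L of animal 1325 (-1.96, edgeR adjusted p = 0.0136). Of 12 muscle genes tested, 11 passed as higher, 5 passed as higher and 3 as lower without this sample, and 0 passed with animal as a block.

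**Figure D1:**
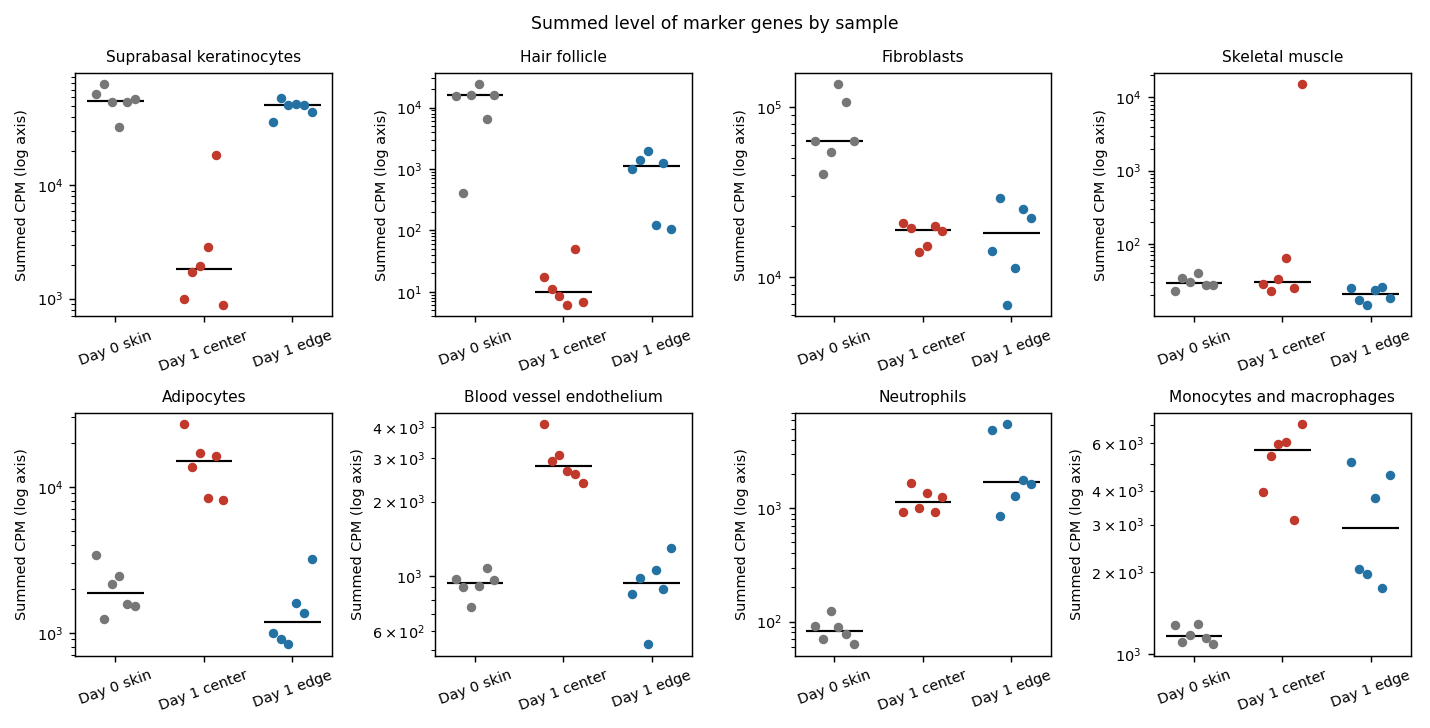
Summed level of the marker genes of 8 cell types in each sample of day 0 skin, day 1 wound center and day 1 wound edge, in CPM on a log axis, with 1 point per sample and a line at the group median. The center lay below skin for suprabasal keratinocytes and hair follicle and above it for adipocytes, endothelium, neutrophils and macrophages, with wound A of animal 1325 apart for keratinocytes at 18467 CPM and wound L of animal 1325 apart for skeletal muscle at 15156 CPM.

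Fibroblast and matrix genes did not move as 1 group. Of 22 fibroblast markers, 7 were higher and 8 lower, and the summed level of the list, which the collagens lead, was 40657 to 136193 CPM in skin and 13988 to 20757 CPM in the center. PDGFRA, the receptor for platelet-derived growth factor on fibroblasts, was between 57.3 and 92.2 CPM (median 66.8) in skin and between 149.7 and 446 CPM (median 236) in the center (log2 fold change 1.91 ± 0.28 SE, edgeR adjusted p = 8.61e-05). DCN, the small proteoglycan decorin, was at 1709 to 4461 CPM (median 2399) in skin and 526 to 919 CPM (median 684) in the center (log2 fold change -2.10 ± 0.25 SE, edgeR adjusted p = 1.70e-05). Of 15 markers of Schwann cells and nerves 6 were lower and 2 higher, and 3 were lower with animal as a block. Of 9 melanocyte markers 5 were lower and 3 higher, and 2 were lower with the block. Of 17 markers of smooth muscle, myofibroblasts and pericytes 8 were lower, the contractile genes MYH11 (-3.15) and CNN1 (-3.04) most, and 5 were higher, among them the pericyte genes ABCC9 (2.04) and KCNJ8 (1.86), all on the log2 scale. Of 15 markers of sebaceous and sweat glands 9 were lower and 4 higher, and PPARG (4.21) and SOAT1 (4.12), both higher, are known from fat cells and macrophages as well.

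Chemokine genes were among those most strongly higher in the center. Of 15 CXC chemokines and receptors 9 were higher and 3 lower, and of 25 CC chemokines and receptors 15 were higher and 3 lower, with median log2 fold changes of 1.58 and 2.66. CXCL8, which draws neutrophils, was between 0 and 0.581 CPM (median 0.108) in skin and between 189 and 819.7 CPM (median 339.8) in the center. The highest skin library held 9 counts and the lowest center library 3401, and the log2 fold change was 11.26 ± 0.76 SE, edgeR adjusted p = 3.78e-07. Without skin of animal 1325, the highest skin sample, that of CXCL8 was 12.09. CCL2, which draws monocytes, was at 4.31 to 9.62 CPM (median 7.49) in skin and 154 to 1309 CPM (median 615) in the center (log2 fold change 6.44 ± 0.50 SE, edgeR adjusted p = 8.15e-07). CCL19, a ligand of the lymphocyte and dendritic cell receptor CCR7, was at 3.59 to 9.26 CPM (median 5.28) in skin and 65.0 to 713 CPM (median 307) in the center (log2 fold change 5.78 ± 0.62 SE, edgeR adjusted p = 7.43e-06). CXCL2 rose by 6.19 ± 0.36, CCL23 by 7.00 ± 0.44 and the receptor CCR1 by 7.62 ± 0.44 (SE, edgeR adjusted p = 1.90e-07, 2.62e-07 and 1.87e-07). PPBP, a chemokine of platelets, stood at 4.34 to 10.9 CPM (median 7.36) in the center and had at most 1 count in any skin library, a fold of 38.0 or more. The groups did not overlap for any of these 7 genes.

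Per length of transcript, as FPKM, the center medians were 737 for CCL2, 348 for CCL19, 172 for CCL23, 161 for CXCL8 and 80.8 for CXCL2, so the chemokine with the largest fold was not the one at the highest level. CXCL14, a chemokine that unwounded epidermis and dermis make, was lower: 511 to 809 CPM (median 622) in skin and 56.4 to 148 CPM (median 74.6) in the center (log2 fold change -2.97 ± 0.25 SE, edgeR adjusted p = 1.49e-06). CCL28, an epithelial chemokine, and CCL11, which draws eosinophils, had log2 fold changes of -4.05 and -2.69 (edgeR adjusted p = 0.0158 and 0.00825).

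Of 15 genes of the interleukin-1 family and the inflammasome 11 were higher and 2 lower (median log2 fold change 0.98). IL1B, the secreted interleukin that starts much of the cytokine response, was between 0 and 0.129 CPM (median 0.0528) in skin and between 17.3 and 72.2 CPM (median 56.2) in the center, at least 290.03-fold higher, since no skin library held more than 2 counts. IL1RN, the natural antagonist of the interleukin-1 receptor, was at 12.8 to 23.0 CPM (median 16.3) in skin and 63.4 to 289.5 CPM (median 185) in the center (log2 fold change 3.36 ± 0.32 SE, edgeR adjusted p = 3.45e-06). NLRP3, the sensor of the inflammasome, was between 0.849 and 2.59 CPM (median 2.12) in skin and between 14.7 and 53.3 CPM (median 39.0) in the center (log2 fold change 4.25 ± 0.39 SE, edgeR adjusted p = 2.42e-06). The groups were apart for each of the 3. IL1R2, the decoy receptor, has more than 1 row in the table, of which 1 was used. It was at 37.3 to 91.3 CPM (median 69.0) in skin and 11.3 to 62.1 CPM (median 45.8) in the center. It did not pass (log2 fold change -0.70 ± 0.35 SE, edgeR adjusted p = 0.0970), while with animal as a block it passed as lower (-1.01, edgeR adjusted p = 0.0491). IL36RN, the epidermal antagonist of IL-36, was lower (log2 fold change -4.74, edgeR adjusted p = 0.00260). The alarmins IL1A and IL33 rose by 0.98 and 0.71 on the log2 scale.

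Of 23 other cytokine, receptor and SOCS genes, 22 were higher, each by at least 2-fold, and 1 was lower (median log2 fold change 3.33). IL6, which drives acute inflammation, was at 0 to 0.913 CPM (median 0.189) in skin and 3.82 to 227 CPM (median 29.8) in the center. Wound L of animal 1323 was the highest center sample, the groups did not overlap, and the log2 fold change was 7.79 ± 1.14 SE, edgeR adjusted p = 8.32e-05. The log2 fold change of IL6 was 6.76 without that sample and 8.65 without skin of animal 1324. With animal as a random effect, IL6 had an adjusted p of 0.0525 in limma-voom, and with animal as a block in edgeR it passed. CSF3, the growth factor of neutrophils, was between 0.182 and 1.71 CPM (median 0.543) in skin and between 3.44 and 70.6 CPM (median 24.0) in the center (log2 fold change 5.17 ± 0.81 SE, edgeR adjusted p = 0.000139). TNF was at 0.441 to 0.969 CPM (median 0.602) in skin and 3.46 to 10.9 CPM (median 6.82) in the center (log2 fold change 3.32 ± 0.36 SE, edgeR adjusted p = 7.29e-06). LIF, a cytokine of the IL-6 family, overlapped between the groups, at 1.93 to 4.17 CPM (median 2.53) against 2.77 to 100.03 CPM (median 14.9), with a log2 fold change of 3.33 ± 0.74 SE, edgeR adjusted p = 0.00169, and missed the threshold with animal as a block (2.43, edgeR adjusted p = 0.0517). Without wound L of animal 1323 the log2 fold change of LIF was 2.23. SOCS3, the feedback inhibitor of STAT3, was at 11.4 to 31.8 CPM (median 16.9) in skin and 149 to 891 CPM (median 431) in the center (log2 fold change 4.61 ± 0.41 SE, edgeR adjusted p = 2.10e-06). The receptor gene IL13RA1 was the 1 lower (-0.24, edgeR adjusted p = 0.0485), and it did not pass with animal as a block or without both wounds of animal 1325.

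**Figure D2:**
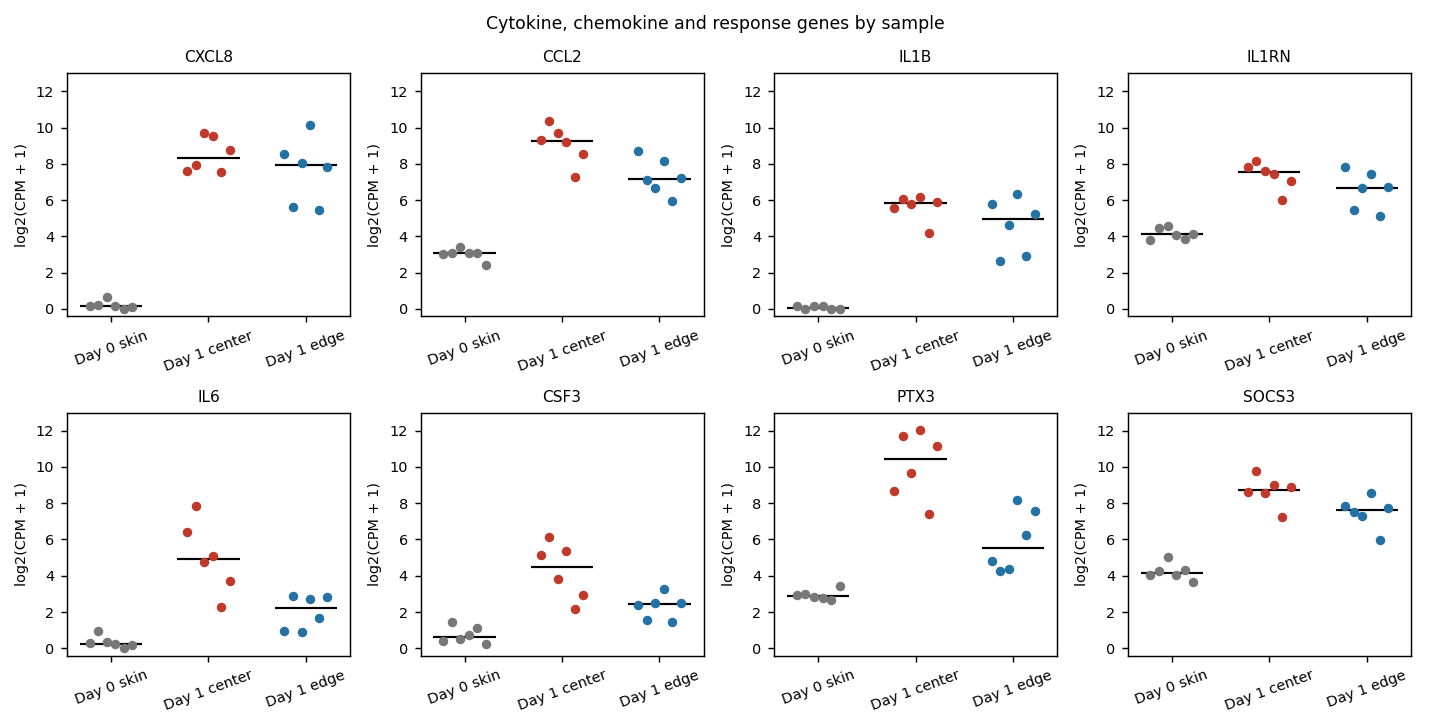
Level of 8 cytokine, chemokine and response genes in each sample, as log2(CPM + 1), with 1 point per sample and a line at the group median. The center samples lay above all skin samples for each of the 8, and the range of the center overlapped that of the edge for each of the 8.

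Of 28 genes that the transcription factor NF-κB is known to induce or that belong to it, 24 were higher, 21 by at least 2-fold, and 1 was lower (median log2 fold change 2.00). PTX3, a pentraxin that marks microbes and dead cells for uptake, was between 5.30 and 9.89 CPM (median 6.40) in skin and between 169.7 and 4135 CPM (median 1551) in the center, a log2 fold change of 8.06 ± 0.83 SE, edgeR adjusted p = 5.55e-06. SOD2, the superoxide dismutase of mitochondria, was at 96.2 to 124 CPM (median 112) in skin and 3173 to 5025 CPM (median 4190.3) in the center. Its log2 fold change was 5.18 ± 0.17 SE, edgeR adjusted p = 5.42e-09, and the groups did not overlap. VCAM1, on which lymphocytes and monocytes stop, rose by 3.15 ± 0.17, and BIRC3, an inhibitor of cell death present in 2 rows of the table, by 2.84 ± 0.26 (SE, edgeR adjusted p = 1.53e-07 and 2.66e-06). RELA, the subunit that carries much of the activity, was between 101 and 123 CPM (median 106) in skin and between 106 and 158 CPM (median 131) in the center. RELA did not pass (log2 fold change 0.25 ± 0.10 SE, edgeR adjusted p = 0.0502), although without TMM it did (0.41, edgeR adjusted p = 0.00228). It also passed without wound A of animal 1325 (0.31, edgeR adjusted p = 0.00915), without both wounds of that animal, without skin of animal 1327 and with all 150 samples in 1 fit. NFKBIZ, a nuclear cofactor of NF-κB, was at 103 to 178 CPM (median 132) in skin and 71.2 to 135 CPM (median 83.3) in the center, overlapping, and was lower (log2 fold change -0.59 ± 0.18 SE, edgeR adjusted p = 0.0108). Without both wounds of animal 1325 it missed the threshold (edgeR adjusted p = 0.0512).

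Of 22 genes of prostaglandin and leukotriene synthesis and their receptors, 11 were higher and 6 lower. TBXAS1, which makes thromboxane in platelets and macrophages, was at 0.849 to 2.63 CPM (median 1.61) in skin and 23.8 to 86.4 CPM (median 63.5) in the center (log2 fold change 5.08 ± 0.39 SE, edgeR adjusted p = 8.19e-07). PTGS2, the inducible cyclooxygenase, overlapped between skin at 7.34 to 27.8 CPM (median 14.6) and center at 17.2 to 128 CPM (median 32.8) (log2 fold change 1.501 ± 0.52 SE, edgeR adjusted p = 0.0235). It did not pass with animal as a block (0.83, edgeR adjusted p = 0.392) or without wound L of animal 1323 (0.81, edgeR adjusted p = 0.0742). The lower genes included ALOX12B (-4.17) and ALOXE3 (-4.12), lipoxygenases of the epidermal barrier, and HPGD (-2.64), which breaks prostaglandins down, as log2 fold changes.

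Markers of white blood cells were higher in the center. Of 16 neutrophil markers 13 were higher and 2 lower (median log2 fold change 4.36). CSF3R, the receptor for CSF3, was between 1.27 and 5.31 CPM (median 2.25) in skin and between 67.7 and 371 CPM (median 149) in the center (log2 fold change 6.00 ± 0.49 SE, edgeR adjusted p = 1.20e-06). S100A8 and S100A9, the calprotectin subunits of neutrophils and stressed keratinocytes, were at 33.7 to 96.3 CPM (median 62.6) and 103 to 262 CPM (median 183) in the center, against 0.677 to 3.36 CPM (median 1.90) and 0.91 to 4.65 CPM (median 2.36) in skin. Their log2 fold changes were 4.95 ± 0.38 and 6.16 ± 0.42 (SE, edgeR adjusted p = 7.39e-07 and 3.82e-07). LTF, lactoferrin of neutrophil granules and of glands, was lower: 8.49 to 33.6 CPM (median 24.1) in skin and 0.12 to 14.2 CPM (median 0.759) in the center (log2 fold change -3.10 ± 0.91 SE, edgeR adjusted p = 0.00967), with the highest center sample in wound A of animal 1325. The other center samples of LTF were at most 1.06 CPM, and without both wounds of this animal its log2 fold change was -5.33 (edgeR adjusted p = 4.99e-06). The summed level of the neutrophil markers was 62.7 to 123 CPM in skin and 921 to 1685 CPM in the center.

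Of 24 monocyte and macrophage markers 23 were higher and 0 lower (median log2 fold change 3.33). CD14, the endotoxin co-receptor, was at 19.4 to 33.6 CPM (median 26.5) in skin and 191 to 501 CPM (median 399.9) in the center (log2 fold change 3.71 ± 0.28 SE, edgeR adjusted p = 6.98e-07). CD163, which takes up hemoglobin, was at 19.8 to 50.9 CPM (median 30.5) in skin and 104 to 864 CPM (median 376) in the center (log2 fold change 3.80 ± 0.48 SE, edgeR adjusted p = 2.59e-05). C1QA, a complement gene of tissue macrophages, overlapped between 39.1 to 94.4 CPM (median 68.9) in skin and 72.0 to 161 CPM (median 128) in the center, with a log2 fold change of 0.82 ± 0.25 SE, edgeR adjusted p = 0.0113. Several genes of myeloid cells were among the 10 with the largest log2 fold changes of the genes with a mean of at least 10 CPM and groups that do not overlap. They were ACOD1, which makes itaconate (9.85 ± 1.04), GPR84, a receptor for medium-chain fatty acids (9.85 ± 0.68), MARCO, a scavenger receptor (9.50 ± 0.97), FCN1, a ficolin of monocytes (7.92 ± 0.49), and ARG1, an arginase (8.76 ± 0.76), as log2 fold changes with SE. Without skin of animal 1326 that of MARCO was 11.04. ACOD1 had 4 reads in skin of animal 1323 and 0 in the other skin samples, so its fitted value without that sample (12.56) depends on the prior count. Without center wound A of animal 1324 the value of ACOD1 was 9.27. ACOD1 has more than 1 row in the deposited counts, of which 1 was used. ARG1 was at 0 to 1.87 CPM (median 0.987) in skin and 105 to 707 CPM (median 472) in the center (edgeR adjusted p = 1.75e-06). VIM, an intermediate filament protein of mesenchymal and white blood cells, was at 933 to 1379.6 CPM (median 1042) in skin and 3004 to 4305 CPM (median 3688) in the center (log2 fold change 1.70 ± 0.15 SE, edgeR adjusted p = 2.23e-06). The other members of the 10 were CXCL8, IL1B and PTX3 above, SDS, a serine dehydratase (log2 fold change 8.40 ± 0.50 SE, edgeR adjusted p = 1.90e-07). SAA2, an acute-phase protein with close copies (log2 fold change 7.98 ± 0.53 SE, edgeR adjusted p = 3.07e-07).

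Of 18 T and NK lymphocyte markers 15 were higher and 2 lower, and of 11 B and plasma cell markers 8 were higher. CD3E, a chain of the T cell receptor complex, was at 0.898 to 1.93 CPM (median 1.35) in skin and 7.46 to 26.8 CPM (median 14.7) in the center (log2 fold change 3.46 ± 0.33 SE, edgeR adjusted p = 2.98e-06). IL7R was at 0.646 to 2.80 CPM (median 1.00) in skin and 14.7 to 122 CPM (median 61.9) in the center (log2 fold change 5.55 ± 0.61 SE, edgeR adjusted p = 8.60e-06). CD79A, a chain of the B cell receptor, was at 0.0564 to 1.48 CPM (median 0.408) in skin and 2.03 to 8.35 CPM (median 4.25) in the center (log2 fold change 3.21 ± 0.58 SE, edgeR adjusted p = 0.000411), with a log2 fold change of 3.87 without skin of animal 1324. GATA3, 1 of the lower genes of the T list, with a log2 fold change of -4.03 (edgeR adjusted p = 0.000121), is also made in epidermis and hair follicles. The summed level of the list was 231 to 458 CPM in skin and 242 to 398 CPM in the center, which overlapped. Of 10 genes of Langerhans and dendritic cells 6 were higher, and CD207, which marks Langerhans cells of the epidermis, was lower and overlapped, at 1.21 to 13.1 CPM (median 5.41) in skin and 0.667 to 2.44 CPM (median 1.13) in the center (log2 fold change -2.21 ± 0.51 SE, edgeR adjusted p = 0.00226). Of 7 mast cell markers 2 were higher, 1 of them with animal as a block, and 1 was lower, and all 4 erythrocyte markers tested were higher, 1 of them with animal as a block.

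All 27 interferon-stimulated genes tested were higher in the center, by log2 fold changes from 1.25 to 5.13 (median 3.51), and their groups did not overlap. All 27 also passed with animal as a block, under DESeq2 and without both wounds of animal 1325. MX1, a GTPase that blocks viruses, was at 9.24 to 34.0 CPM (median 17.1) in skin and 185 to 714 CPM (median 500.3) in the center (log2 fold change 4.59 ± 0.41 SE, edgeR adjusted p = 1.90e-06). ISG15, a ubiquitin-like protein, was between 9.48 and 26.3 CPM (median 16.9) in skin and between 95.7 and 805 CPM (median 307) in the center (log2 fold change 4.35 ± 0.54 SE, edgeR adjusted p = 2.26e-05). IFIT2, which binds foreign RNA, rose by 5.13 ± 0.49 and GBP1, a GTPase that is strongly induced by interferon gamma, by 4.49 ± 0.41 (SE, edgeR adjusted p = 3.08e-06 and 2.20e-06). GBP1 has more than 1 row in the table, and members of the IFIT and OAS families resemble each other, so reads may be shared among them. The summed level of the list was 539.6 to 761 CPM in skin and 3169 to 8434 CPM in the center. The receptor genes IFNAR1 and IFNAR2 rose by 2.58 ± 0.22 and 2.35 ± 0.18 (SE, edgeR adjusted p = 1.30e-06 and 7.30e-07). The interferon genes IFNG and IFNB1 were too low to be tested: IFNG had at most 7 counts and IFNB1 at most 2 in any center library. Levels of other interferon genes are not given here.

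**Figure D3:**
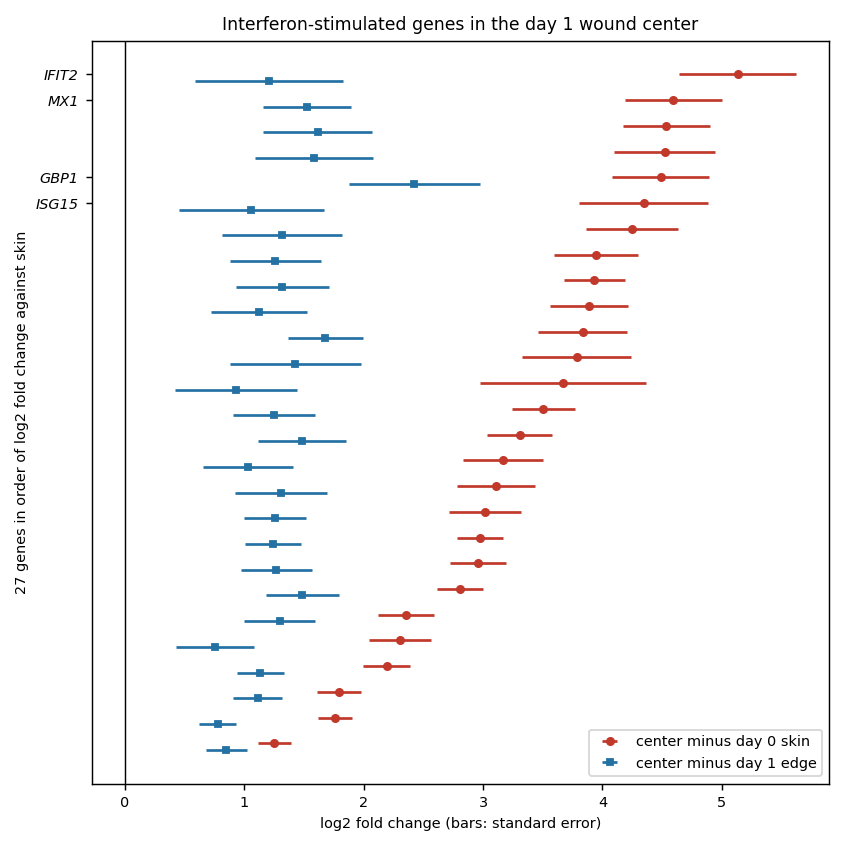
Log2 fold change of the 27 interferon-stimulated genes in the day 1 center against day 0 skin (circles) and against the day 1 edge (squares), with bars for the standard error and names for the genes given with full values. Against skin all 27 lay between 1.25 and 5.13, and against the edge all lay above 0, of which 23 passed the test.

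All 17 genes of antigen presentation tested were higher, 14 by at least 2-fold (median log2 fold change 2.00), and 16 with animal as a block. B2M, the light chain of class I molecules, was at 53.9 to 101 CPM (median 76.5) in skin and 221 to 369 CPM (median 318) in the center (log2 fold change 1.96 ± 0.16 SE, edgeR adjusted p = 1.25e-06). CD74, the chaperone of class II molecules, was at 1059.8 to 1439 CPM (median 1235) in skin and 1668 to 2389 CPM (median 1907) in the center (log2 fold change 0.65 ± 0.14 SE, edgeR adjusted p = 0.00145), and was the gene lost with the block (0.54, edgeR adjusted p = 0.0561). Of 25 complement genes 17 were higher and 2 lower. C2, a protease of the classical pathway, was at 3.71 to 11.7 CPM (median 7.69) in skin and 116 to 187 CPM (median 172) in the center (log2 fold change 4.30 ± 0.28 SE, edgeR adjusted p = 2.98e-07). CFB, its counterpart in the alternative pathway, rose by 4.82 (edgeR adjusted p = 2.26e-07). Of 24 genes of coagulation and platelets 13 were higher and 6 lower, and F13A1, which cross-links fibrin, rose by 2.28 (edgeR adjusted p = 0.000542). Of 12 antimicrobial proteins 7 were higher and 2 lower.

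Among 35 collagens and collagen-processing genes 14 were higher and 15 lower. The fibrillar collagens of dermis were among the lower: COL1A1 was at 12309 to 49254 CPM (median 19747) in skin and 3007 to 5109.6 CPM (median 4492) in the center (log2 fold change -2.59 ± 0.34 SE, edgeR adjusted p = 3.07e-05). COL3A1 was at 13959 to 41521 CPM (median 21132) in skin and 5249 to 8857 CPM (median 6837) in the center (log2 fold change -1.93 ± 0.29 SE, edgeR adjusted p = 0.000107). COL1A2 changed by -2.75 ± 0.32 (SE, edgeR adjusted p = 1.50e-05). The basement membrane collagens COL4A1 and COL4A2, which wrap vessels and fat cells, were higher: COL4A1 was at 289 to 701 CPM (median 463) in skin and 2449 to 4756 CPM (median 2912) in the center (log2 fold change 2.69 ± 0.26 SE, edgeR adjusted p = 2.98e-06). COL4A2 rose by 2.36 ± 0.25 (SE, edgeR adjusted p = 7.19e-06). The groups did not overlap for any of these 5 genes. COL7A1, the anchoring collagen under the epidermis, was at 268 to 534 CPM (median 408) in skin and 2.14 to 113 CPM (median 4.17) in the center (log2 fold change -4.29 ± 1.03 SE, edgeR adjusted p = 0.00288). Of 23 genes of elastic fibers and small proteoglycans 12 were lower and 3 higher, and 7 were lower with skin of the 3 shared animals alone.

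Of 30 matrix proteases and their inhibitors 19 were higher and 7 lower (median log2 fold change 1.49). TIMP1, an inhibitor of matrix metalloproteinases, was at 26.6 to 37.2 CPM (median 30.2) in skin and 278 to 1759 CPM (median 588) in the center (log2 fold change 4.68 ± 0.44 SE, edgeR adjusted p = 2.72e-06). ADAMTS4, which cuts aggrecan and versican, was at 1.37 to 5.53 CPM (median 3.65) in skin and 48.8 to 274 CPM (median 142) in the center (log2 fold change 5.33 ± 0.49 SE, edgeR adjusted p = 2.42e-06). MMP1, a collagenase that keratinocytes make as they migrate, was at 0.303 to 0.628 CPM (median 0.53) in skin and 2.85 to 237 CPM (median 7.09) in the center. Its highest center sample was wound A of animal 1325, the sample with keratinocyte RNA, the log2 fold change was 6.40 ± 1.34 SE, edgeR adjusted p = 0.00112, and without both wounds of this animal it was 3.66 (edgeR adjusted p = 4.02e-06). With animal as a random effect MMP1 missed the threshold (4.27, limma-voom adjusted p = 0.0609), and with animal as a block in edgeR it passed. MMP2, the gelatinase of fibroblasts, did not pass, at 636 to 1692 CPM (median 873) in skin and 808 to 1354 CPM (median 1162) in the center (log2 fold change 0.11 ± 0.25 SE, edgeR adjusted p = 0.729). Of 26 matricellular and hyaluronan genes 10 were higher and 5 lower. TNC, tenascin C, was at 27.9 to 64.3 CPM (median 44.6) in skin and 201 to 3277 CPM (median 999) in the center (log2 fold change 4.65 ± 0.66 SE, edgeR adjusted p = 6.67e-05), with a log2 fold change of 4.02 without wound L of animal 1324. POSTN, periostin, went the other way, with 2887 to 6714 CPM (median 3678) in skin and 198 to 921 CPM (median 344) in the center (log2 fold change -3.41 ± 0.39 SE, edgeR adjusted p = 1.09e-05). FN1, fibronectin, overlapped, at 385 to 798 CPM (median 460.2) in skin and 241 to 579 CPM (median 326) in the center, and its log2 fold change of -0.64 ± 0.26 SE, edgeR adjusted p = 0.0465 missed the threshold in many of the alternative fits, among them animal as a block (-0.33, edgeR adjusted p = 0.344).

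Growth factor genes moved in both directions. Of 34 genes 18 were higher and 12 lower. IGF1 was at 2.91 to 8.52 CPM (median 5.17) in skin and 45.6 to 84.4 CPM (median 68.2) in the center (log2 fold change 3.60 ± 0.28 SE, edgeR adjusted p = 8.87e-07). HGF, made by mesenchymal cells, was at 2.65 to 5.51 CPM (median 3.88) in skin and 10.3 to 30.7 CPM (median 21.4) in the center (log2 fold change 2.33 ± 0.32 SE, edgeR adjusted p = 5.42e-05). The groups did not overlap for either gene. On the other side EGFR, the receptor of epidermal growth factor, was at 319.8 to 405 CPM (median 388) in skin and 68.9 to 181 CPM (median 77.2) in the center (log2 fold change -2.02 ± 0.22 SE, edgeR adjusted p = 9.35e-06). FGFR3, a receptor of keratinocytes, was at 353 to 757 CPM (median 597) in skin and 2.97 to 158 CPM (median 5.36) in the center (log2 fold change -4.35 ± 1.06 SE, edgeR adjusted p = 0.00309). EREG, a ligand of EGFR, was lower (-2.37 ± 0.28), and AREG, another ligand, did not pass (0.79 ± 0.43), with edgeR adjusted p of 1.66e-05 and 0.126. Of 28 genes of the TGF-β, activin and BMP pathway 12 were higher and 8 lower, and TGFB1 was at 28.1 to 38.6 CPM (median 31.0) in skin and 96.6 to 252 CPM (median 172) in the center (log2 fold change 2.39 ± 0.22 SE, edgeR adjusted p = 2.44e-06).

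Of 35 genes of the WNT pathway, which maintains hair follicles and basal epidermis, 22 were lower and 5 higher (median log2 fold change -1.34). WNT3, a ligand made by keratinocytes, was at 73.3 to 158 CPM (median 141) in skin and 0.454 to 27.2 CPM (median 1.09) in the center (log2 fold change -4.65 ± 0.98 SE, edgeR adjusted p = 0.00119). AXIN2, a target and inhibitor of the pathway, was at 23.8 to 36.2 CPM (median 30.2) in skin and 3.41 to 17.1 CPM (median 5.90) in the center (log2 fold change -1.85 ± 0.35 SE, edgeR adjusted p = 0.000596). LEF1, a transcription factor of the pathway, overlapped between the groups, and skin of animal 1324, the skin sample lowest in hair markers, stood lowest at 1.03 CPM. Its log2 fold change of -2.40 ± 0.73 (SE, edgeR adjusted p = 0.0115) missed the threshold with animal as a block (edgeR adjusted p = 0.128). SFRP2, a secreted WNT binder of fibroblasts, was higher, at 8.01 to 27.4 CPM (median 15.5) in skin and 36.2 to 418 CPM (median 182) in the center (log2 fold change 3.51 ± 0.66 SE, edgeR adjusted p = 0.000523).

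Genes of oxidative and metal stress were mostly higher: 20 of 32 were higher and 3 lower (median log2 fold change 1.05). HMOX1, heme oxygenase, was at 8.90 to 26.2 CPM (median 20.4) in skin and 441 to 779.8 CPM (median 599) in the center (log2 fold change 4.94 ± 0.29 SE, edgeR adjusted p = 1.90e-07). FTH1, the heavy chain of ferritin with 6 rows in the table, was at 1032 to 1369 CPM (median 1251) in skin and 4822 to 9111 CPM (median 6428) in the center (log2 fold change 2.39 ± 0.17 SE, edgeR adjusted p = 5.18e-07). Of 30 genes of the hypoxia response and glycolysis 19 were higher and 7 lower. HK2, an inducible hexokinase, was at 22.9 to 105 CPM (median 62.8) in skin and 139 to 499.96 CPM (median 325) in the center (log2 fold change 2.28 ± 0.36 SE, edgeR adjusted p = 0.000139). EGLN3, a hypoxia-induced prolyl hydroxylase, was at 62.4 to 100.2 CPM (median 70.3) in skin and 4.60 to 28.0 CPM (median 8.11) in the center (log2 fold change -2.90 ± 0.40 SE, edgeR adjusted p = 5.15e-05). Of 44 nuclear genes of the respiratory chain 32 were higher and 0 lower, 2 of them by at least 2-fold. Those that passed had log2 fold changes of 0.35 to 1.17, and SDHA, a subunit of succinate dehydrogenase, was at 88.9 to 123 CPM (median 114) in skin and 234 to 324 CPM (median 243) in the center (log2 fold change 1.17 ± 0.11 SE, edgeR adjusted p = 2.28e-06). Of 28 genes of protein folding stress 16 were higher and 6 lower, with HSPA8, a constitutive chaperone, at 358 to 572 CPM (median 424) in skin and 949.8 to 1987 CPM (median 1749) in the center (log2 fold change 1.77 ± 0.22 SE, edgeR adjusted p = 2.50e-05).

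Cell cycle genes were mostly lower in the center: of 35 genes 23 were lower and 3 higher, 0 with animal as a block (median log2 fold change -1.04). The list as drawn up also named CDKN1A, CDKN2A and CDKN2B, inhibitors of division, so its counts and sums are not of division genes alone. MKI67, a marker of dividing cells, was at 30.3 to 59.4 CPM (median 45.3) in skin and 11.1 to 49.2 CPM (median 15.6) in the center, overlapping, with wound A of animal 1325 highest (log2 fold change -1.23 ± 0.34 SE, edgeR adjusted p = 0.00699). TOP2A, a topoisomerase of dividing cells, overlapped too and was at 50.1 to 73.3 CPM (median 63.2) in skin and 5.94 to 58.9 CPM (median 13.2) in the center (log2 fold change -1.68 ± 0.47 SE, edgeR adjusted p = 0.00725). Without wound A of animal 1325 the log2 fold change of TOP2A was -2.36 and that of RORA, a clock gene below, -4.30. The count of lower genes was 12 without TMM, 6 with skin of the 3 shared animals, and 15, 15 and 13 without wounds A and L of animal 1323 and wound A of animal 1324 in turn. Of 23 genes of cholesterol synthesis and uptake 10 were lower and 3 higher. INSIG1, which holds back the sterol-sensing pathway, was higher, at 25.2 to 91.6 CPM (median 47.8) in skin and 86.0 to 204 CPM (median 136) in the center, overlapping (log2 fold change 1.36 ± 0.31 SE, edgeR adjusted p = 0.00224). Of 19 clock genes 9 were lower and 3 higher, and RORA was at 155 to 233 CPM (median 226) in skin and 9.72 to 69.7 CPM (median 11.6) in the center (log2 fold change -3.42 ± 0.52 SE, edgeR adjusted p = 0.000102). ARNTL2 rose by 2.32 ± 0.23 (SE, edgeR adjusted p = 4.44e-06). Of 13 genes on a list of glucocorticoid-induced genes that also names the receptor NR3C1 and the turnover enzyme HSD11B2, 6 were higher and 4 lower.

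Of 25 immediate early and AP-1 genes 9 were higher and 6 lower, and 5 were higher with animal as a block. FOSL1, an AP-1 subunit of injured tissue, was at 0.364 to 3.10 CPM (median 0.972) in skin and 20.8 to 35.0 CPM (median 25.3) in the center (log2 fold change 4.10 ± 0.50 SE, edgeR adjusted p = 1.92e-05). FOS itself overlapped at 154 to 672 CPM (median 233) in skin and 98.9 to 512 CPM (median 232) in the center and did not pass (log2 fold change -0.29 ± 0.45 SE, edgeR adjusted p = 0.593). KLF4, a factor of epidermal differentiation that is also induced early, was lower, at 524 to 904 CPM (median 786) in skin and 45.5 to 175 CPM (median 64.7) in the center (log2 fold change -3.27 ± 0.33 SE, edgeR adjusted p = 4.93e-06).

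**Figure D4:**
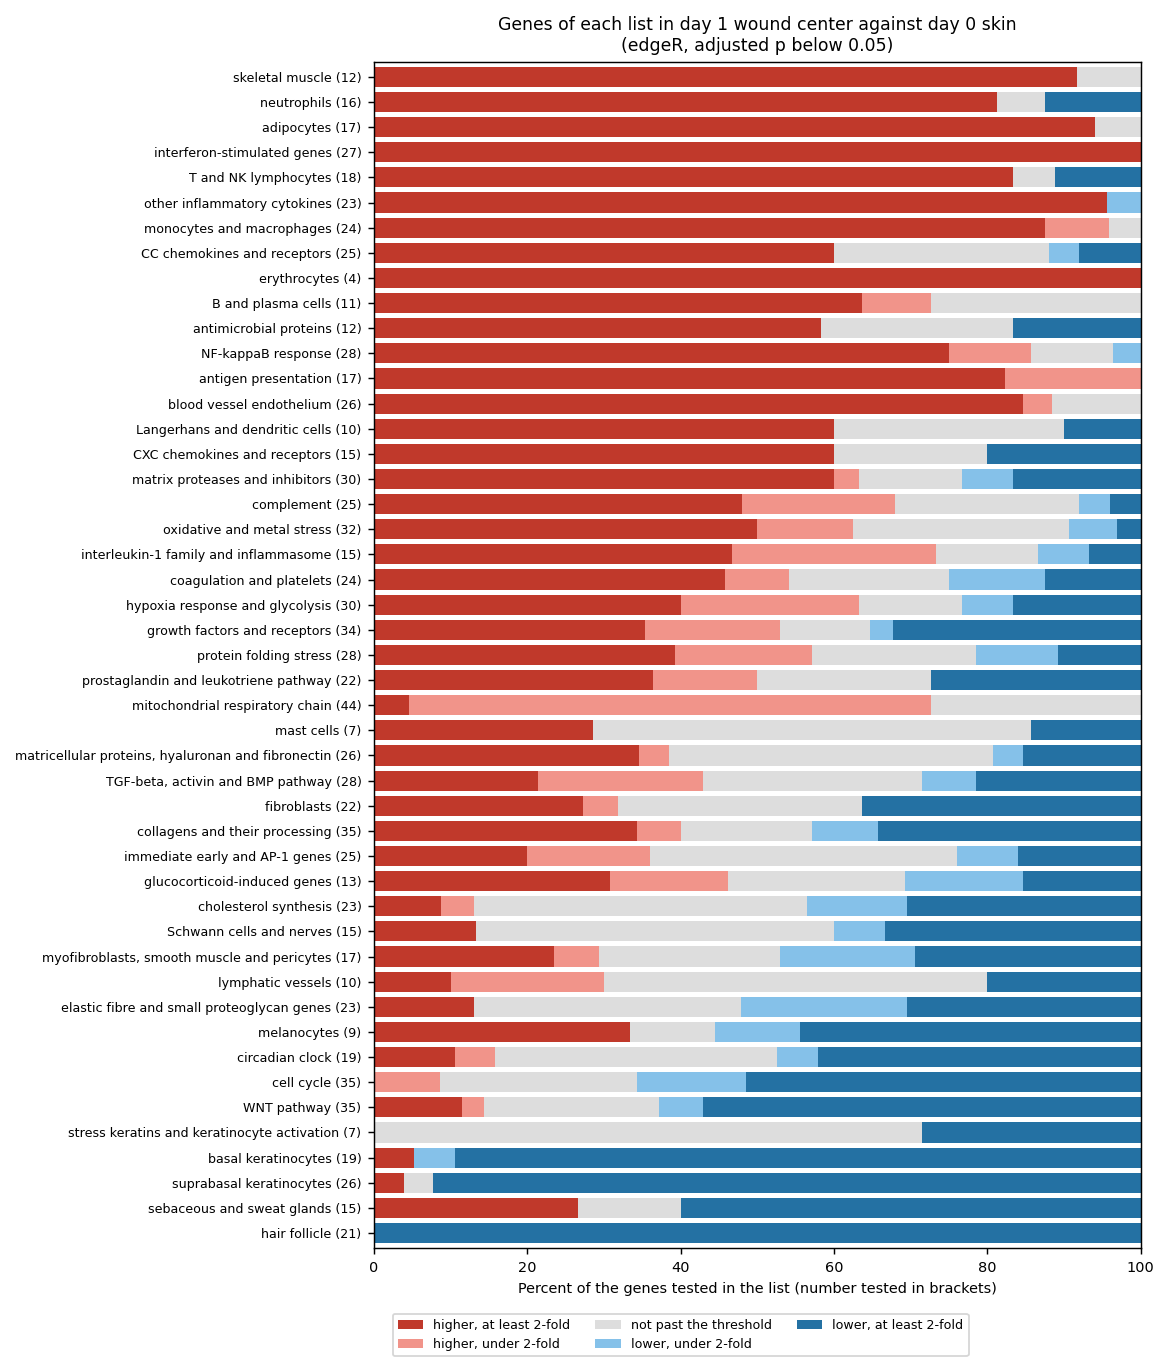
Share of the tested genes of each of the 47 lists that were higher (red) or lower (blue) in the day 1 center against day 0 skin at an edgeR adjusted p below 0.05, with darker shades for at least 2-fold and gray for genes that did not pass. Lists run from the highest to the lowest median log2 fold change, from skeletal muscle at 5.89, which rests on 1 sample, to hair follicle at -9.85, against 33.0% higher and 32.1% lower over all genes.

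The edge of the same wounds was compared with the center to show where the center stood apart from the rim. Over 14432 genes tested, 3268 (22.6%) were higher in the center than at the edge and 3463 (24.0%) lower. Adipocyte markers were higher in 16 of 17, with a summed level of 832 to 3200.4 CPM at the edge. ADIPOQ was at 10.4 to 682 CPM (median 78.7) at the edge, and the log2 difference, center minus edge, was 4.70 ± 0.96 SE, edgeR adjusted p = 0.00196, and 5.83 without the edge of wound L of animal 1325. Endothelial markers were higher in 24 of 26. Of 35 collagen genes 22 were higher and 3 lower, and COL4A1 was higher by a log2 difference of 2.96 ± 0.40 SE, edgeR adjusted p = 0.000207, while COL1A1, at 1635 to 7312 CPM (median 5524) at the edge, did not differ past the threshold (log2 difference -0.23 ± 0.34 SE, edgeR adjusted p = 0.596). Interferon-stimulated genes were higher in 23 of 27, and IL6, at 0.858 to 6.25 CPM (median 3.93) at the edge, by a log2 difference of 4.14 ± 0.94 SE, edgeR adjusted p = 0.00378, or 3.14 without center wound L of animal 1323. PTX3 was at 17.96 to 289.99 CPM (median 50.9) at the edge (log2 difference 4.15 ± 0.97 SE, edgeR adjusted p = 0.00436), a difference of 4.80 on the log2 scale without the edge of wound L of animal 1324.

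Several inflammatory genes did not pass between center and edge. CXCL8 was at 42.4 to 1146 CPM (median 246) at the edge (log2 difference 0.30 ± 0.72 SE, edgeR adjusted p = 0.752), IL1B at 5.29 to 80.5 CPM (median 30.5) (log2 difference 0.59 ± 0.58 SE, edgeR adjusted p = 0.427) and TNF at 2.15 to 16.8 CPM (median 4.03) (log2 difference 0.01 ± 0.52 SE, edgeR adjusted p = 0.985). Of 17 neutrophil markers 3 were higher in the center and 4 lower, and S100A8, lower in the center, stood at 139 to 1227 CPM (median 198) at the edge (log2 difference -2.90 ± 0.63 SE, edgeR adjusted p = 0.00275). Epidermal genes were present at the edge: KRT10 was at 11807 to 20957 CPM (median 15735) there, and 24 of 26 suprabasal markers were lower in the center. KRT6C was at 4240.3 to 14312 CPM (median 8363) at the edge (log2 difference -4.57 ± 1.23 SE, edgeR adjusted p = 0.00931) and MMP1 at 491 to 908 CPM (median 625) (log2 difference -3.89 ± 1.14 SE, edgeR adjusted p = 0.0144). Of the 35 cell cycle genes 33 were lower in the center than at the edge, among them MKI67 (log2 difference -2.08 ± 0.39 SE, edgeR adjusted p = 0.00113). Without both wounds of animal 1325 the log2 differences were -7.47 for KRT6C, -6.69 for MMP1 and -2.67 for MKI67.

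Day 1 can be placed in the course of the center over the 14 days sampled, on a CPM scale set across all 150 samples and with no test. Each of these days was sampled either in the animals of day 1 or in the other animals. Day 16 came from other animals than days 1, 3, 5, 7 and 11. Day and animal cannot be told apart where days from different animals are compared. The summed interferon-stimulated genes had their highest median on day 1, at 5664 CPM, with 2903 CPM on day 3 as the next highest and 605 CPM in skin. Adipocyte markers (13656 CPM), ADIPOQ (4127), PTX3 (1426), SOD2 (3823) and MX1 (466) were also highest on day 1. The next highest medians were 12160 CPM for adipocyte markers, 2622 for ADIPOQ, 923 for PTX3 and 2848 for SOD2 on day 2. That of MX1 was 208 CPM on day 3. The adipocyte ranges of day 1 (7484 to 24461 CPM) and day 2 (4287 to 17820 CPM) overlapped. Other responses peaked later. The highest median was on day 5 for CXCL8 (1682 CPM against 314 on day 1), on day 7 for IL1B (153 against 51.6) and on day 11 for the neutrophil markers (5242 against 1042). CXCL8 on day 3 was nearly as high as on day 5, at 1678 CPM. Cell cycle genes, inhibitors of division included, were at their lowest center median of the course on day 1, at 829 CPM, and highest on day 5, at 2416 CPM. COL1A1 went from 4046 CPM on day 1 to 64426 CPM on day 16.

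**Figure D5:**
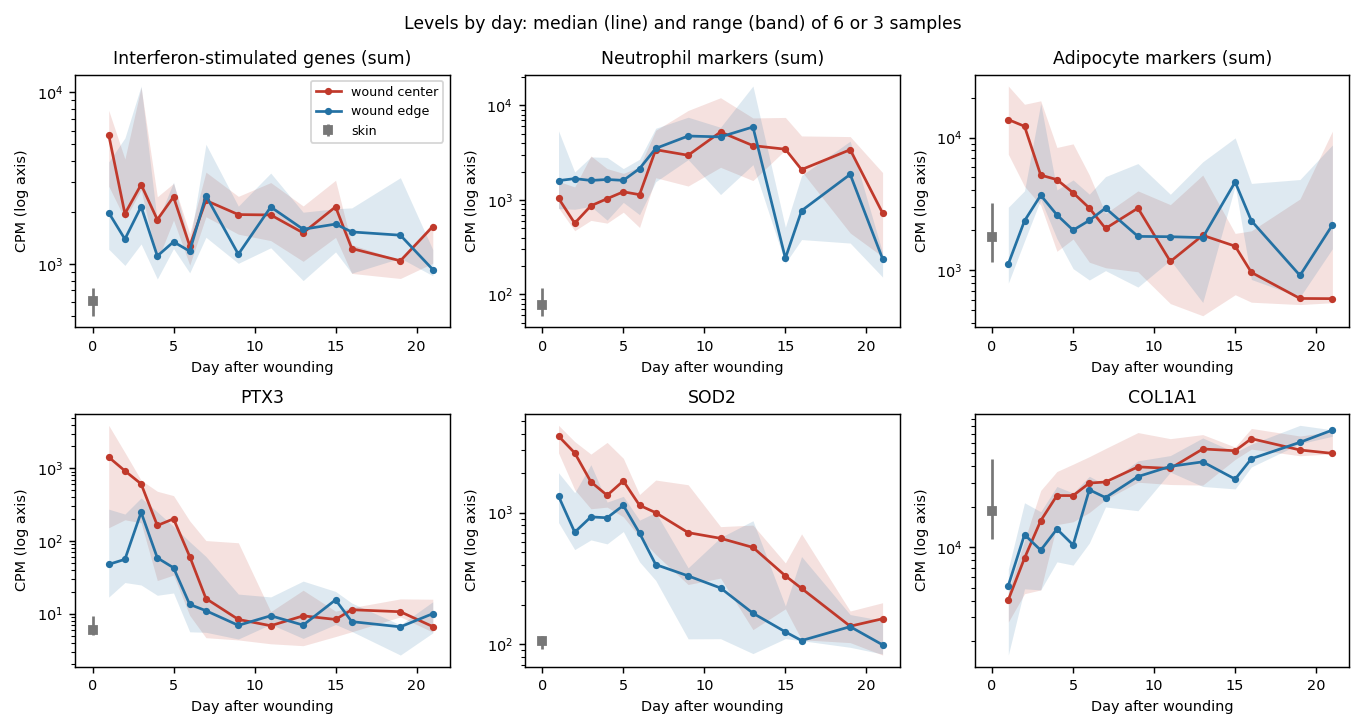
Level in the wound center (red) and edge (blue) over the 14 days of sampling, with day 0 skin as a gray square, in CPM on a log axis, with the median as a line and the range over 6 or 3 samples as a band. On day 1 the center was at 5664 CPM for the summed interferon-stimulated genes and 13656 CPM for the adipocyte markers, the highest medians of the course, while COL1A1 was at 4046 CPM, its lowest. Each day of healing was sampled either in the animals of day 1 or in the other animals.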

How the data were processed

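RNA with a poly-A tail was sequenced by Novogene, which removed reads with adapters, undetermined bases or low quality, aligned the rest and counted them per gene. The aligner, the counter and the genome build are not given in the sources used here. The deposited table of counts holds unnormalized whole-number counts for 30461 genes on 2337 contigs, of which 12300 have a symbol in the table, 9387 were named here from the protein match the table gives and 8774 are unnamed. The deposited FPKM values, which the authors scaled by gene length and library, served only to compare levels between genes.

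Counts were tested with the quasi-likelihood test of edgeR 4.0.16 in R 4.3.3, with TMM factors, a filter by expression (minimum count 10, minimum total 15), no covariates and Benjamini-Hochberg adjustment, two-sided, on the 12 samples of the comparison and, separately, on the 6 center and 6 edge samples of day 1. Fold changes and errors (SE) are of the fitted model on the log2 scale. The labels give separate wounds and animals for the samples. Alternatives were the scaling, the filter, DESeq2 1.42.0, animal as a block or as a random effect (limma 3.58.1, voom), summed wounds, other sample sets and each replicate left out. The pairing comes from the animals that are in both groups. The correlation over genes between the mean center sample of an animal and its own skin, both as deviations from the group means, was 0.177, 0.0526 and 0.151 for the 3 animals. The script was tested on simulated data with 200 changed genes.

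The named genes are the 10 with the largest log2 fold change each way among genes past the threshold with a mean of at least 10 CPM and groups that do not overlap, the 5 whose mean CPM rose or fell most, and members of 47 lists of pathways and cell types with a large change or a defining role. The groups, the lists and the genes were chosen with earlier results of these data known. Where a low group held at most 3 counts in every library, the fold is a bound, the median of the high group over the largest level that 3 counts give. This covers counting error only. Some genes are not reported here.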

Additional observations from a re-analysis of the deposited data

Results flagged for a closer look

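In each group of 6 samples, the gap between the most extreme sample and its neighbor was divided by the range of the group. This ratio was set against the critical ratio of Dixon for 6 samples. Chance exceeds it in about 1 of 20 groups of normally distributed values. CPM need not be distributed in that way and the groups are related, so the number that chance would give here is not known. Of 348 groups, made of the named genes and the summed levels of the lists in skin and in center, 51 exceeded it, and 23 of them were in wound A of animal 1325. Wound A of animal 1325 was the highest center sample, with ratios of 0.857 for KRT31, 0.984 for KRT10, 0.988 for KRT1, 0.967 for KRT5, 0.990 for DSG1, 0.982 for TP63, 0.953 for KRT6C, 0.961 for LHX2, 0.933 for LTF, 0.661 for POSTN, 0.975 for MMP1, 0.974 for COL7A1, 0.647 for EGFR, 0.966 for FGFR3, 0.932 for WNT3, 0.744 for EGLN3, 0.823 for MKI67, 0.706 for TOP2A, 0.942 for RORA, 0.888 for the summed suprabasal keratinocytes, 0.761 for the summed basal keratinocytes, 0.903 for the summed keratinocyte activation genes and 0.736 for the summed hair follicle.

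Wound L of animal 1323 was the highest center sample, with ratios of 0.694 for CXCL14, 0.641 for IL6, 0.781 for LIF, 0.852 for PTGS2, 0.758 for SELP and 0.804 for the summed immediate early and AP-1 genes. Wound A of animal 1323 was the highest center sample, with ratios of 1.00 for KRT82, 1.00 for KRT35, 0.648 for KRTAP11-1 and 0.670 for COL4A1. Wound L of animal 1325 was the highest center sample, with ratios of 0.998 for ACTA1, 0.998 for CKM and 0.997 for the summed skeletal muscle. Skin of animal 1323 was the highest skin sample, with ratios of 1.00 for ACOD1, 1.00 for PPBP and 0.741 for KLB. Skin of animal 1326 was the lowest skin sample, with ratios of 0.653 for EGFR, 0.799 for RORA and 0.773 for the summed growth factors and receptors. Skin of animal 1324 was the highest skin sample, with ratios of 0.717 for IL6 and 0.678 for CD79A. Skin of animal 1325 was the highest skin sample, with ratios of 0.705 for CXCL8 and 0.655 for the summed immediate early and AP-1 genes. Skin of animal 1326 was the highest skin sample, with ratios of 0.713 for MARCO and 0.641 for the summed sebaceous and sweat glands. Skin of animal 1327 was the highest skin sample, with ratios of 0.746 for the summed other inflammatory cytokines and 0.631 for the summed lymphatic vessels. Skin of animal 1328 was the highest skin sample, with ratios of 0.663 for PTX3. The values of some skin and center groups lie near 0, where 1 library with a few counts sets the ratio, as for ACOD1 and PPBP in skin and KRT82 and KRT35 in the center.

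Of 116 named genes tested both against skin and against the day 1 edge, 77 differed between center and edge at an edgeR adjusted p below 0.05. This is the difference between the change of the center and that of the edge from skin. Over all 14432 genes tested, 22.6% were higher in the center than at the edge and 24.0% lower. The named genes were chosen with earlier results of these data known, so their share cannot be read against that background. The log2 difference, center minus edge, of CKM was 7.71 and rested on wound L of animal 1325, since CKM was at most 5.32 CPM in the other center samples and at most 5.20 CPM at the edge, and without that sample it was 0.07 (edgeR adjusted p = 0.941). After CKM, the log2 differences, center minus edge, were largest for MLXIPL 5.57, LEP 4.98, NPTX1 4.87, ADIPOQ 4.70, TGM2 4.66, PLIN1 4.59, TRARG1 4.40, PTX3 4.15, KLB 4.15, IL6 4.14, LPL 3.95, BCAM 3.85, SFRP2 3.00, IGF1 2.98, COL4A1 2.96 and LIF 2.95. Without the edge of wound L of animal 1325, those of MLXIPL, TRARG1 and KLB were 6.25, 5.52 and 5.69. Smaller positive log2 differences, center minus edge, were COL4A2 2.91, HGF 2.80, CSF3 2.69, C2 2.58, HK2 2.52, GBP1 2.42, ADAMTS4 2.36, SELP 2.12, KDR 2.06, FCN1 2.02, CCL2 1.76, TNC 1.67, PDGFRA 1.65, CCL19 1.65, PECAM1 1.61, MX1 1.52 and VCAM1 1.48. The smallest positive log2 differences that passed were IL7R 1.46, SOD2 1.44, CD79A 1.44, MMP2 1.32, B2M 1.27, SOCS3 1.19, FTH1 1.19, NLRP3 1.15, C1QA 1.14, IFNAR1 1.11, BIRC3 1.06, IFNAR2 0.95, INSIG1 0.89, TGFB1 0.85, SDHA 0.81 and CD74 0.40.

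Lower in the center than at the edge, by log2 differences, were LHX2 -5.66, LTF -4.94, KRT6C -4.57, KRT5 -4.31, TP63 -4.23, FGFR3 -4.09, KRT10 -3.90, MMP1 -3.89, DSG1 -3.81, KRT1 -3.67, COL7A1 -3.44, WNT3 -3.42 and S100A8 -2.90. Less negative log2 differences were RORA -2.78, S100A9 -2.50, TOP2A -2.42, CXCL14 -2.17, EGLN3 -2.15, MKI67 -2.08, KLF4 -2.04, IL1R2 -1.74, CD207 -1.62, POSTN -1.47, EREG -1.29, EGFR -1.23, FOSL1 -0.78 and NFKBIZ -0.65. Of the genes of both directions, C1QA, CCL19, CD74, CKM, DSG1, IL7R, INSIG1, KRT1, KRT10, NLRP3, SOCS3 and TNC missed the threshold against the edge with 1 library left out, for at least 1 library, and CD74, CKM and NLRP3 without both wounds of animal 1325.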

How the results depend on the processing

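Across normalization, filter, tool, sample set and leaving out each replicate, the genes higher numbered 3807 to 5855 and the genes lower 3846 to 5701, against 4879 and 4744, and by at least 2-fold 2446 and 2846. Leaving out a replicate gave 4671 to 4966 higher and 4528 to 4987 lower. The center and edge comparison gave 2610 to 3373 higher and 3057 to 3651 lower with a replicate left out. Animals 1323, 1324 and 1325 are in both groups, and with animal as a replicate block 3807 genes were higher and 3889 lower. With the wound as a replicate block, the center and edge comparison gave 3279 and 3412.

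Of 127 named genes with a fit, 100 kept direction and side of the threshold under every alternative. The sign changed for CKM with animal as a block (-0.84), with animal as a random effect in limma-voom (-0.33), without wound L of animal 1325 (-1.96) and without both wounds of animal 1325 (-1.81), and for FOS without skin of animal 1325 (0.10). With 1 replicate left out the log2 fold change ran from -1.96 to 6.00 for CKM and from -0.60 to 0.10 for FOS. The fit without both wounds of animal 1325 was chosen after seeing the data. With the block, TGM3, LIF, PTGS2, CD74, FN1, LEF1, ACTA1 and CKM missed the threshold and IL1R2 passed it, and no other named gene changed its call. Of the 94 list counts, 63 stayed within 1.5 times the main count under every alternative. The cause of these changes was not tested.

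In the simulated data of the center and skin comparison, edgeR found 55% of 2-fold and 72% of 4-fold changes, and 3.79% of its calls were false, so a gene that missed the threshold may still differ. In DESeq2, KRT6C, MMP1, ACTA1 and CKM received no adjusted p and are left out of the counts of changed calls for that tool. DESeq2 called 5226 genes higher and 5701 lower, with 23.0% false calls in the same simulation. The simulation had 200 changed genes, far fewer than passed in the real comparison, and no differences between animals. The shares found and the shares of false calls therefore need not hold for the real data.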

Other observations

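Several genes outside the lists, chosen after their values were seen, were high in the day 1 center. TGM2, a transglutaminase that cross-links matrix, was at 3.33 to 11.2 CPM (median 5.16) in skin, 394 to 1044 CPM (median 647) in the center and 8.17 to 65.5 CPM (median 13.1) at the edge, with a log2 fold change against skin of 6.62 ± 0.41 SE, edgeR adjusted p = 2.26e-07. NPTX1, a secreted pentraxin best known from neurons, was at 0.264 to 6.49 CPM (median 1.98) in skin and 204 to 733 CPM (median 426) in the center, a log2 fold change of 7.39 ± 0.66 SE, edgeR adjusted p = 2.10e-06. The groups did not overlap between skin and center for either gene.

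Other genes that fat cells use were also higher. KLB, the co-receptor of FGF21, was at 0.971 to 27.6 CPM (median 7.13) in skin and 69.8 to 356 CPM (median 165) in the center, a log2 fold change of 4.41 ± 0.77 SE, edgeR adjusted p = 0.000294, and 5.25 without skin of animal 1323. TRARG1, a regulator of the glucose transporter GLUT4, was at 9.99 to 160.1 CPM (median 49.5) in skin and 649 to 1971 CPM (median 983) in the center, a log2 fold change of 4.15 ± 0.60 SE, edgeR adjusted p = 7.85e-05. MLXIPL, the carbohydrate-response transcription factor, was at 0.485 to 3.31 CPM (median 1.36) in skin and 16.8 to 96.5 CPM (median 59.0) in the center, a log2 fold change of 5.14 ± 0.58 SE, edgeR adjusted p = 1.02e-05. They passed against the edge as well, by log2 differences of 4.15, 4.40 and 5.57.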
